A study of Mus musculus with 6 samples.

Results

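The genes described here encode the proteins that mark, license and fire DNA replication origins and the proteins that copy DNA at the fork. They were taken from a fixed list of 45 names, and each name was looked up in the RNA-seq table. All 45 were found, each on a row of its own. All 45 had a mean FPKM of at least 1 over the conditions, as had 12782 of the 22969 gene names in the table. FPKM counts the fragments of a gene, scaled by the length of its transcript and by the depth of the library, so levels of different genes can be set side by side per transcript length.

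The cells were mouse embryonic stem cells (ESCs) of the line E14Tg2a, at passages 37 to 40, and both conditions came from that line. Of the 6 RNA samples, 3 were from pluripotent ESCs kept with leukemia inhibitory factor (LIF), a cytokine that holds these cells in self-renewal. The other 3 were from neuronal cells (NCs), which are monolayers of the same ESCs kept without LIF and with 1 µM retinoic acid (RA) for 2 days (48 h). RNA of each replicate was pooled from culture plates, and LIF withdrawal and RA treatment went together, so their parts cannot be told apart. The deposited table gives 1 FPKM per gene and condition, estimated by the authors from the 3 replicates together. No SD or n therefore stands beside a value. The authors' own test results in the table were not used, no test could be made from 1 value per condition, and the differences are given here without a replicate check.

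Origins are licensed in G1, when the origin recognition complex (ORC) binds DNA and, with Cdc6 and Cdt1, loads pairs of the ring-shaped MCM helicase. At the start of S phase the kinase Cdc7 and cyclin-dependent kinases turn the loaded helicase on by adding Cdc45 and the GINS complex. Polymerase alpha-primase then lays primers, the RFC clamp loader places the PCNA clamp, and polymerases delta and epsilon extend the strands while RPA covers single-stranded DNA. Mouse ESCs are known for short G1 phases and for a large share of cells in S phase, and these genes are abundantly transcribed in them. In a bulk sample, fewer cells in S phase and less RNA per cell cannot be told apart.

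Most of the 45 genes had a somewhat lower FPKM in NCs than in ESCs on the deposited scale, and large differences were rare among them. As deposited, 36 of the 45 had the lower value in NCs, against 52.4% of all 12782 genes, and 9 had the higher value, against 47.6%. The median log2 ratio of the NC to the ESC value was -0.28 for the replication genes and -0.04 for all genes. Orc1, the largest ORC subunit, was the single member past 2-fold: it was 2.08-fold lower in NCs, where 9.94% of all genes were at least 2-fold lower. No member was at least 2-fold higher, where 11.1% of all genes were, so that 1 member of 45 passed the limit either way against 21% of all genes. Within 1.5-fold lay 37 of the 45 members, against 7912 of all 12782 genes. Past that limit, 7 were lower in NCs (Orc1, Pold2, Mcm10, Pold1, Rfc5, Orc5 and Mcm3), against 18.8% of all genes, and Mcm9 alone was higher, against 19.3%.

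The direction of the smaller differences depends on the scale. The FPKM values of the whole table summed to 770592 in ESCs and 628679 in NCs, and making the sums equal adds 0.29 to every log2 ratio, which moves the median of all genes from -0.04 to 0.26. On that scale 21 members were lower in NCs, against 32.9% of all genes, the members' median log2 ratio was 0.011, and none was at least 2-fold lower, against 6.77% of all genes. None was at least 2-fold higher there either, against 16.4% of all genes. Equal upper quartiles add 0.05, which left 34 members lower, against 49.1% of all genes. Throughout, the median gene is the gene in the middle of all genes by log2 ratio, not by level. A position relative to it does not move under any common scaling. Below the median gene lay 35 of the 45 members, where 50% of all genes lie. The members' median was 0.25 below it on the log2 scale. The 15 members that were lower as deposited and higher after equal sums were Mcm8, Orc3, Orc4, Orc6, Cdc6, Cdc7, Gins4, Pcna, Rfc2, Pola2, Prim1, Prim2, Pole2, Rpa2 and Rrm2. Cdc6 and Rfc2 also turned with equal upper quartiles.

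**Figure D1:**
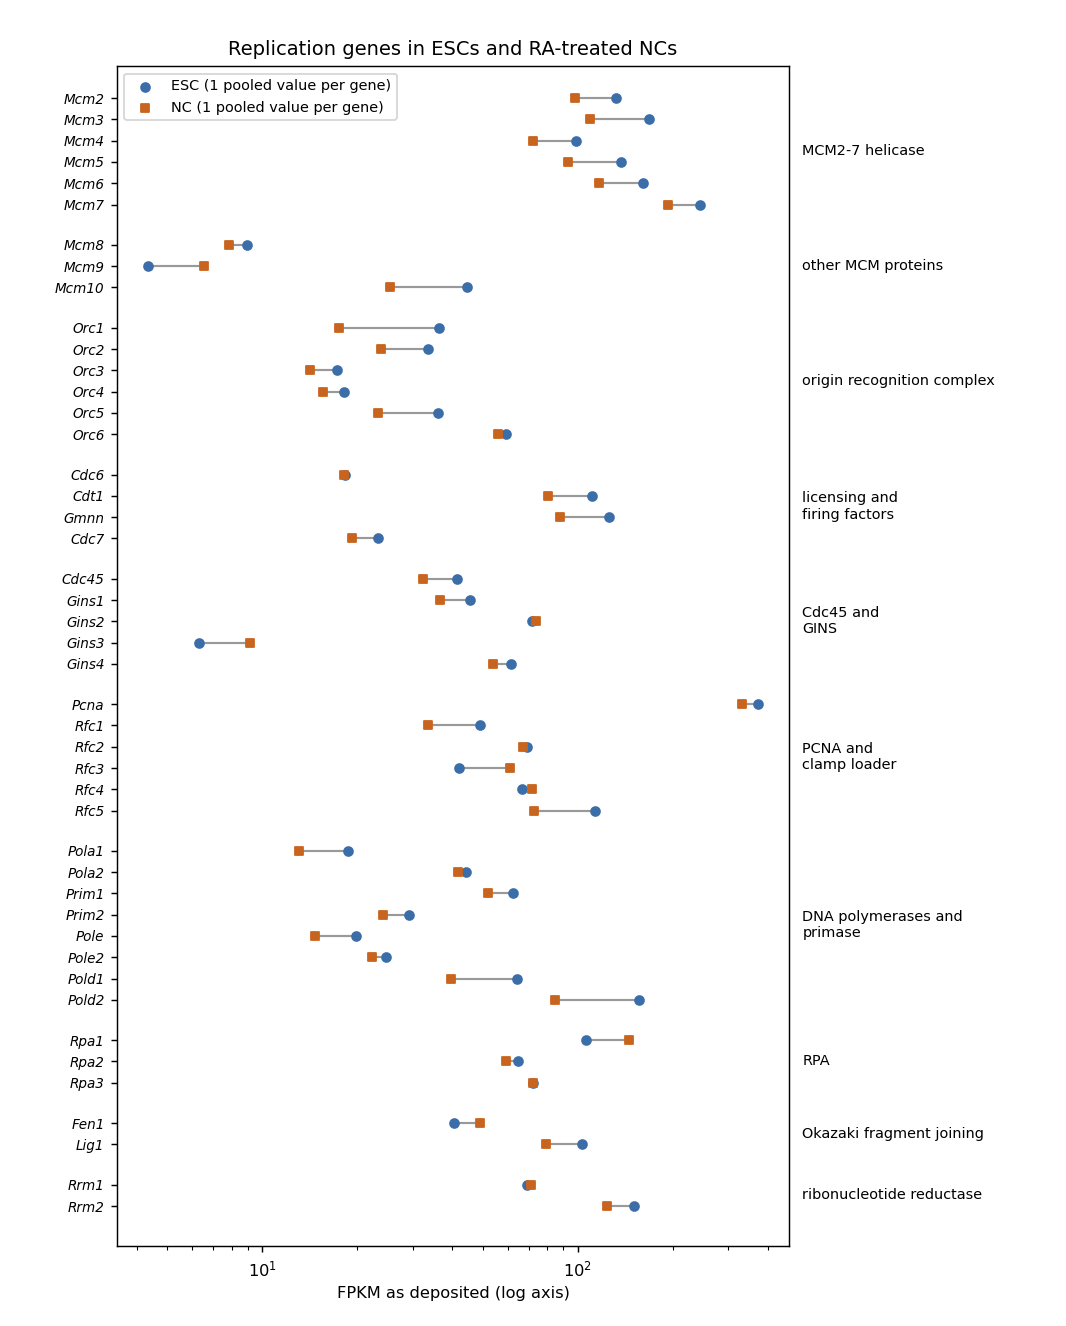
Deposited FPKM of the 45 replication genes on a log axis, with a circle for ESCs and a square for NCs, grouped by role and each with 1 pooled value per condition. The 6 MCM2-7 genes keep their separate levels with every square to the left of its circle. Of the 9 members with the square to the right, Mcm9, Gins3, Rfc3 and Rpa1 have the widest gaps.

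The order of the levels was almost the same in both conditions. ESC values ran from 4.34 FPKM (Mcm9) to 374 FPKM (Pcna) with a median of 61.4, and NC values from 6.52 FPKM (Mcm9) to 332 FPKM (Pcna) with a median of 53.8. In each condition 42 members lay above the median level of all genes, which was 11.5 FPKM in ESCs against 11.6 FPKM in NCs. Between the conditions, the Spearman correlation of the 45 levels was 0.97, a description across genes that share the same pair of pooled estimates. By rank, 36 members moved by at most 3 places and none by more than 9. Summed over the members, the NC value was 81.6% of the ESC value (2816 against 3449 FPKM) as deposited and 100.1% after equal sums. The members therefore held nearly the same share of the FPKM of the whole table in both conditions. The background was also taken without the genes below the members' range: of the 9026 genes with a mean FPKM at least that of the lowest member, a set that still reaches well below the typical member, 56.1% were lower in NCs as deposited, their median log2 ratio was -0.07, and 7.78% were at least 2-fold lower.

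Promoters of many S-phase genes carry sites for E2F factors, which switch such genes on at the G1/S boundary, and CCAAT boxes, which bind the factor NF-Y. RefSeq promoter windows, from 250 bases before to 50 bases after each start on GRCm38.p6, were found for 37 of the 45 members. They were searched on both strands for 8 E2F-type words (TTTCCCGC, TTTCCCGG, TTTCGCGC, TTTCGCGG, TTTGCCGC, TTTGCCGG, TTTGGCGC and TTTGGCGG) and for CCAAT. An E2F word stood in a window of 18 of the 37 members (48.6%), against 9.45% of the 9351 genes with a window and a mean FPKM of at least 1 and 5.14% of all 27025 genes in the promoter table. CCAAT stood in 67.6% of members, against 43.5% and 41.1%, and both together in 27.0% of members, against 3.76% and 2.02%. By single windows of 300 bases, 39.1% of the members' 46 windows held an E2F word, against 4.51% of all windows. For windows of genes with a mean FPKM of at least 1 the share was 7.89%. A match of letters is a description and does not show that a factor binds there. The words were spread over members with different ratios: the 18 with a word had a median log2 ratio of -0.31 as deposited, from -1.05 (Orc1) to 0.54 (Rfc3), and the 19 without a word had a median of -0.27. After equal sums, these medians would each be higher by the same 0.29.

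The sequences below show the word in capitals with its flanks, 5′ to 3′ on the strand of the gene, for the member furthest below the median gene (Orc1), for 3 helicase subunits, for the loading factor Cdt1, and for 3 of the members that were higher in NCs (Rfc3, Gins3 and Rpa1). All are from RefSeq on GRCm38.p6.
Orc1: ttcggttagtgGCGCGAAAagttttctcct
Mcm5: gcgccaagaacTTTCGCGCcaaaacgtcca
Mcm6: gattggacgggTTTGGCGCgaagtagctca
Mcm7: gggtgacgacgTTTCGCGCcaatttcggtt
Cdt1: cgaggctgaagCCGCGAAAgttgcgcggaa
Rfc3: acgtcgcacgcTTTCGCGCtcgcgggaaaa
Gins3: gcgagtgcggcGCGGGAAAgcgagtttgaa
Rpa1: attctgtctgtCCGCCAAAggactgggcgg
The Orc1 stretch lies at chr4:108579416-108579445 on the plus strand, and its word begins 27 bases before the RefSeq start. All starts used for these stretches are those of RefSeq. The GENCODE gene positions given below can begin elsewhere, as for Orc1. That of Mcm5 is at chr8:75109345-75109374 (plus, 153 bases before the start), that of Mcm6 at chr1:128359734-128359763 (minus, 47 before), and that of Mcm7 at chr5:138171849-138171878 (minus, 16 after). Those of Cdt1 at chr8:122568000-122568029 (plus) and Rfc3 at chr5:151651200-151651229 (minus) begin 4 and 10 bases before the start. Those of Gins3 at chr8:95633507-95633536 (plus) and Rpa1 at chr11:75348582-75348611 (minus) begin 41 and 217 bases before it. The word TTTCGCGC, read on one strand or the other, stood in windows of 6 members, Orc1, Mcm5, Mcm6, Lig1, Mcm7 and Rfc3, whose NC values were 48.1%, 68.1%, 72.6%, 76.7%, 78.8% and 145% of their ESC values as deposited. In the Mcm7 stretch the CCAAT box shares 1 base with the E2F word, in the Mcm5 stretch a second E2F word overlaps the one in capitals, and the Rfc3 stretch holds a second one, TTTCCCGC read on the other strand, in its lower-case flank.

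**Figure D2:**
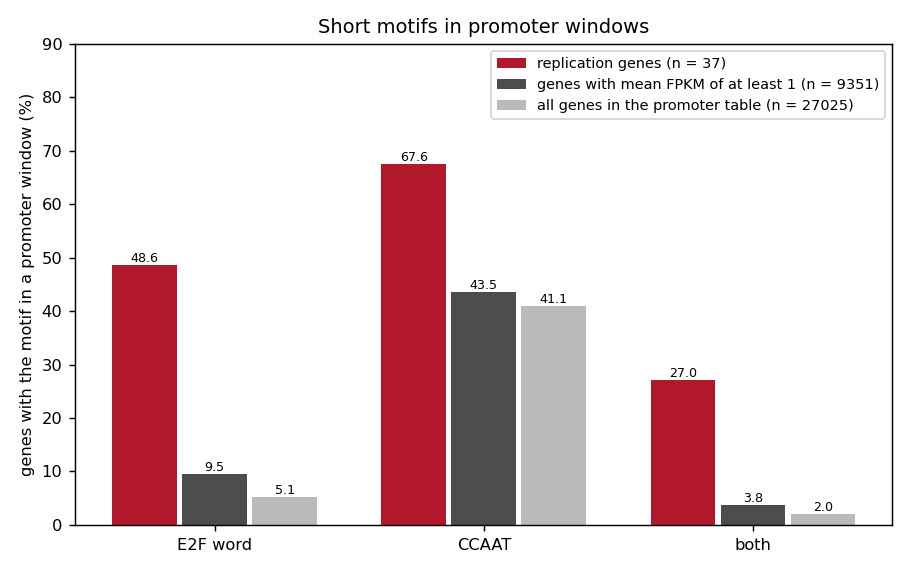
Share of genes, in percent, with an E2F word, with CCAAT or with both in a promoter window of 300 bases, for the 37 replication genes with a window, for 9351 genes with a mean FPKM of at least 1 and for all 27025 genes in the promoter table. The bars of the replication genes are the tallest for each motif, at 48.6%, 67.6% and 27.0%.

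The origin recognition complex is the 6-subunit assembly that marks where replication may begin. All 6 of its genes lay below the median gene. As deposited all 6 were lower in NCs, and after equal sums 3 of them (Orc1, Orc2 and Orc5) were. Orc1, the subunit that leaves chromatin and is renewed in each cycle, was at 36.4 FPKM in ESCs against 17.5 FPKM in NCs, a log2 ratio of -1.05 as deposited and -0.76 after equal sums. It lies on chromosome 4 (chr4:108579423-108614833, plus strand, GRCm38), and 9.20% of all genes had a ratio at or below it. Orc2 went from 33.5 to 23.7 FPKM, and Orc5, which pairs with Orc4 in the ring of the complex, from 36.2 to 23.2 FPKM. The remaining subunits were closer in the 2 conditions. Orc3 was at 17.2 and 14.2 FPKM, Orc4 at 18.2 and 15.6 FPKM, and Orc6, the smallest and least tightly bound subunit, at 59.1 and 55.9 FPKM. Orc6 was the most abundant ORC transcript in both conditions. Its excess over Orc1 was 1.62-fold in ESCs and 3.18-fold in NCs, and these ratios within a condition do not depend on the scale.

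The value of Orc1 has limits from the annotation. Its gene body overlaps that of Gm12743, a noncoding transcript on the opposite strand, over 22409 bases, and the preparation is not stated to keep strand, so reads of the 2 genes cannot be told apart where exons meet. Prpf38a, a splicing factor gene that starts 87 bases away in the other direction, was at 62.9 FPKM in ESCs against 50.4 FPKM in NCs. Its log2 ratio was -0.32 as deposited, nearer to that of the median gene than the ratio of Orc1.

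Loading of the helicase needs Cdc6 and Cdt1, and geminin (Gmnn) binds Cdt1 to stop reloading after S phase begins. Cdc6 was almost equal in the 2 conditions, at 18.4 FPKM in ESCs against 18.2 FPKM in NCs, and lay 0.02 above the median gene on the log2 scale. Cdt1 was at 111 and 80.7 FPKM, and Gmnn at 126 and 88.2 FPKM. These differences were of similar size, so that the ratio of the inhibitor to its target was 1.13 in ESCs and 1.09 in NCs. The ratio of Cdt1 to Cdc6 was 6.06 in ESCs and 4.44 in NCs. The annotation places Cdt1 within Gm20388, a protein-coding gene of the same strand that overlaps it over 5540 bases, and how reads were divided between them is not known. Cdc7, the kinase that phosphorylates the loaded helicase, was at 23.3 and 19.3 FPKM. Of these 4 genes, 3 lay below the median gene and Cdc6 above it.

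The MCM2-7 helicase is a ring of 6 related subunits, each present in the ring once. Their genes lay within a narrow band: the log2 ratios ran from -0.62 to -0.34, and all 6 were lower in NCs as deposited, after equal sums and after equal upper quartiles. Mcm2 was at 132 FPKM in ESCs against 98.1 FPKM in NCs, Mcm3 at 168 and 110 FPKM, and Mcm4 at 99.0 and 72.0 FPKM. For Mcm5 the values were 137 and 93.4 FPKM, for Mcm6 161 and 117 FPKM, and for Mcm7 245 and 193 FPKM. Mcm7 was the highest and Mcm4 the lowest in both conditions, and the ratio of the highest to the lowest was 2.47 in ESCs and 2.68 in NCs. Summed over the 6 subunits, the NC value was 72.5% of the ESC value as deposited and 88.8% after equal sums. Among all genes, the ratios of the 6 stood between percentiles 17.7 and 29.7, so many genes differed more. Mcm7 also carries the microRNA genes Mir25, Mir93 and Mir106b within its gene body, and the FPKM does not measure them.

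The other MCM proteins have different roles and did not share this pattern. Mcm10, which helps the helicase start and holds polymerase alpha at the fork, was at 44.7 FPKM in ESCs against 25.4 FPKM in NCs, 1.76-fold lower as deposited and the third lowest ratio of the members. Mcm8 and Mcm9 form a helicase of their own that acts mainly in homologous recombination. Mcm8 was at 8.96 and 7.87 FPKM, below the median gene, whereas Mcm9 was at 4.34 and 6.52 FPKM, the highest ratio of all 45 members (log2 0.59 as deposited, 0.88 after equal sums). The ratio of Mcm8 to Mcm9 was 2.07 in ESCs and 1.21 in NCs. Mcm9 (chr10:53536315-53630439, minus strand, GRCm38) overlaps Asf1a, a histone chaperone gene on the opposite strand, over 12469 bases. Asf1a was at 12.3 FPKM in ESCs against 20.6 FPKM in NCs, and its part in the Mcm9 value was not tested.

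**Figure D3:**
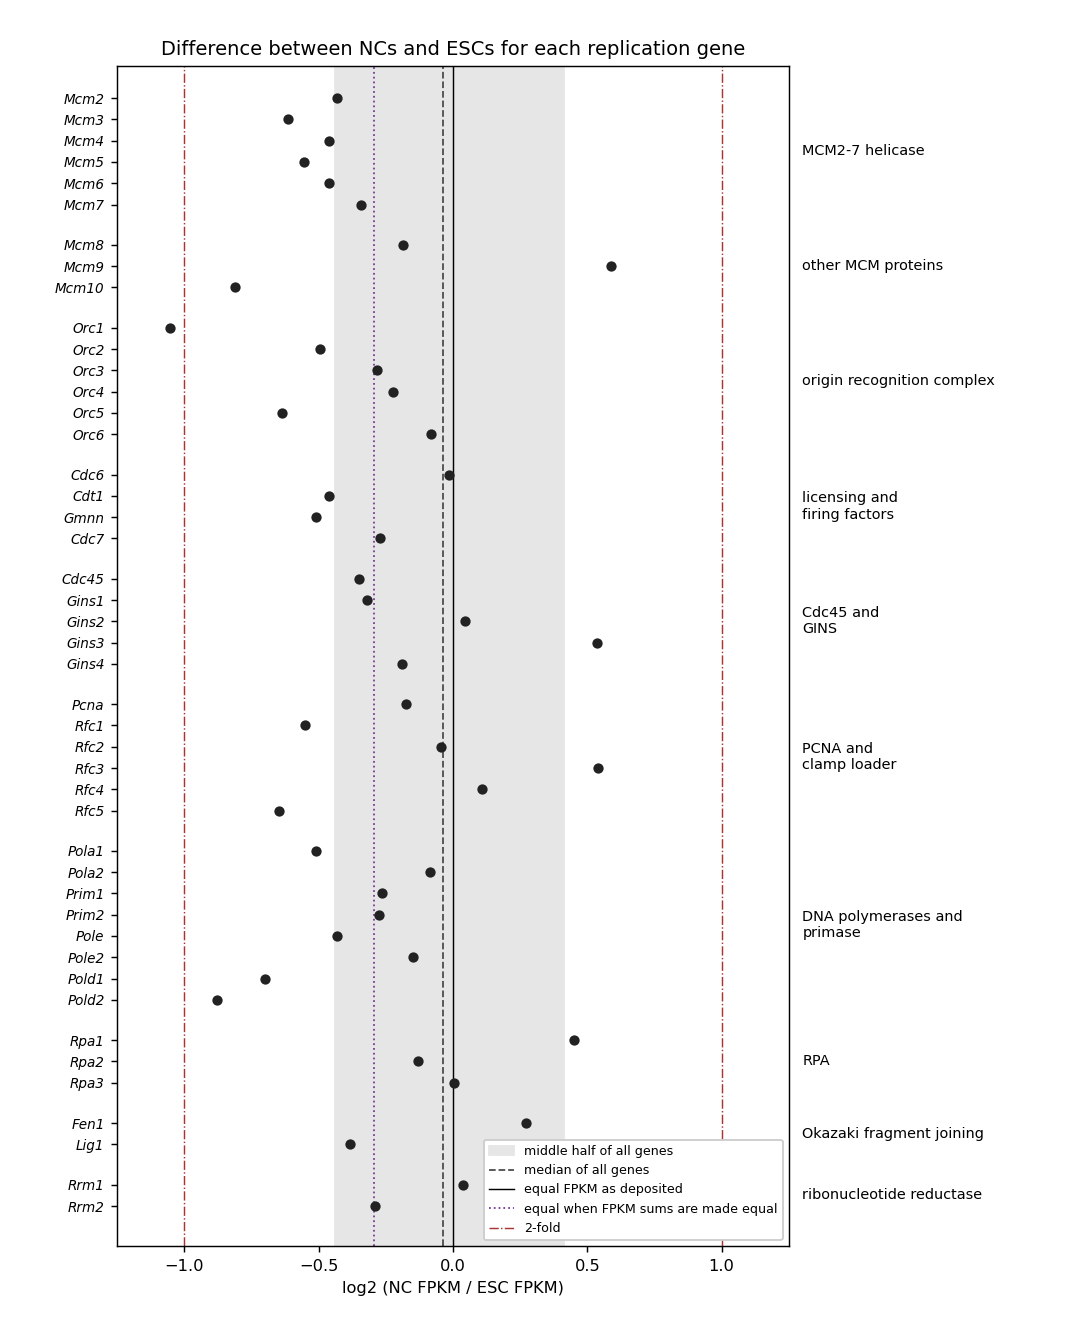
Log2 ratio of the NC to the ESC FPKM for each of the 45 replication genes, as deposited and grouped by role. The grey band spans the lower to the upper quartile of all 12782 genes (-0.44 to 0.41), the dashed line is their median (-0.04), the dotted line is where a gene would be equal after equal FPKM sums, and the outer lines mark 2-fold, which Orc1 alone passes.

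Cdc45 and GINS join the MCM ring to make the working helicase. GINS has 4 subunits in equal number, yet their transcripts differed in level and in their side of the median gene. Gins1 was at 45.8 FPKM in ESCs against 36.7 FPKM in NCs, and Gins4 at 61.4 and 53.8 FPKM, both below the median gene. Gins2 was at 71.9 and 74.0 FPKM, and Gins3 at 6.32 and 9.17 FPKM, both above the median gene. Gins3 was the lowest of the 4 by far: the ratio of Gins2 to Gins3 was 11.4 in ESCs and 8.08 in NCs. It was the second lowest member of all in ESCs after Mcm9, and the one with the fewest fragments by an estimate from the lowest values in the table, which gave it at least 208 fragments in ESCs and 292 in NCs. That number of fragments carries a counting error of 6.93% and 5.85%, which does not cover the spread between replicates. Cdc45, at 41.4 and 32.4 FPKM, lay below the median gene. The Gins2 gene overlaps 2 genes of the opposite strand, and reads from the shared stretch cannot be told apart.

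Polymerase alpha-primase makes the short primers from which both strands are extended. Its 4 genes lay below the median gene, but after equal sums Pola1 alone stayed lower in NCs. The catalytic subunit Pola1 was at 18.7 FPKM in ESCs against 13.1 FPKM in NCs, while the regulatory subunit Pola2 was at 44.2 and 41.7 FPKM. The primase subunits Prim1, which is catalytic, and Prim2 were at 62.5 and 52.0 FPKM and at 29.2 and 24.1 FPKM. Their ratio was 2.14 in ESCs and 2.16 in NCs, the steadiest of the pairs compared here.

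Of the polymerases that copy the bulk of the DNA, polymerase delta had the lowest ratios. It works mainly on the lagging strand, and its catalytic subunit Pold1 was at 64.5 FPKM in ESCs against 39.6 FPKM in NCs. Its partner Pold2 was at 156 and 84.9 FPKM, 1.84-fold lower as deposited and the second lowest ratio of the members after Orc1. The ratio of Pold2 to Pold1 was 2.42 and 2.14. Polymerase epsilon works mainly on the leading strand. Pole was at 19.9 and 14.7 FPKM, and Pole2 at 24.7 and 22.3 FPKM. All 4 genes lay below the median gene. After equal sums 3 stayed lower and Pole2 did not. Summed over the 4 genes, the NC value was 60.9% of the ESC value as deposited and 74.7% after equal sums. This sum leaves out the accessory subunits, which are not among the members: as deposited, Pold4 had a log2 ratio of -0.54, Pold3 -0.08, Pole3 0.14 and Pole4 0.05. For polymerase alpha-primase it was 84.7% as deposited and 103.8% after equal sums.

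PCNA, the sliding clamp that tethers polymerases, had the highest level of all members in both conditions, at 374 FPKM in ESCs against 332 FPKM in NCs, and lay 0.14 below the median gene on the log2 scale. The 5 RFC subunits, which form the ring that opens the clamp, did not move together. The large subunit Rfc1 was at 49.0 and 33.5 FPKM and Rfc5 at 114 and 72.7 FPKM, both below the median gene and lower in NCs also after equal sums. Rfc2 was at 69.4 and 67.3 FPKM, within 0.01 of the median gene. Rfc4 was at 66.7 and 71.8 FPKM and Rfc3 at 42.1 and 61.2 FPKM, both above the median gene. The ratio of Rfc5 to Rfc3 was therefore 2.70 in ESCs and 1.19 in NCs. Rfc3 and Rpa1 stood 9 ranks higher among the members in NCs than in ESCs, the furthest of any. The stretch of its promoter printed above holds the same E2F word as those of Mcm5 and Mcm7.

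RPA is a trimer that coats single-stranded DNA. Among the groups of members whose FPKM was summed, it alone was higher in NCs as deposited, at 114% of the ESC value. Mcm8 and Mcm9 were summed only together with Mcm10, so the helicase they form is not among these groups. After equal sums RPA was at 139%, GINS at 115% (111% with Cdc45) and the RFC subunits at 110% (109% with PCNA). Other groups above the ESC value on that scale were Fen1 with Lig1 at 109%, Rrm1 with Rrm2 at 108% and polymerase alpha-primase at 103.8%. Rpa1, the large subunit, was at 106 FPKM in ESCs against 145 FPKM in NCs, a log2 ratio of 0.45. Rpa2 was at 64.6 and 59.1 FPKM and Rpa3 at 72.0 and 72.1 FPKM. The 3 transcripts were therefore less evenly matched in NCs: the ratio of Rpa1 to Rpa2 was 1.64 in ESCs and 2.45 in NCs. Smyd4, whose start lies 109 bases from that of Rpa1 in the other direction, was at 6.56 and 9.06 FPKM, a log2 ratio of 0.47.

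Fen1 and Lig1 finish Okazaki fragments, the first by cutting the displaced primer flap and the second by sealing the nick. They stood on opposite sides of the median gene. Fen1 was at 40.6 FPKM in ESCs against 49.1 FPKM in NCs, and Lig1 at 103 and 79.3 FPKM. The ratio of Lig1 to Fen1 was 2.54 in ESCs and 1.61 in NCs. Ribonucleotide reductase makes the deoxynucleotides for synthesis from a large subunit, Rrm1, and a small subunit, Rrm2, that is degraded outside S phase. Rrm1 was at 69.4 and 71.2 FPKM and Rrm2 at 151 and 124 FPKM, so the ratio of Rrm2 to Rrm1 was 2.18 in ESCs and 1.74 in NCs.

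Other genes of replication showed less of a common direction than the members as deposited, though not after equal sums. The 47 related genes covered control of firing and licensing, fork proteins outside the members, nucleotide supply and chromatin assembly. As deposited 27 (57.4%) were lower in NCs, against 52.4% of all genes, and after equal sums 13 were, against 32.9%. The median log2 ratio of the 47 was -0.06 as deposited, against -0.04 for all genes. None was past 2-fold as deposited, against 21% of all genes. Firing and licensing control includes the Cdc7 activator Dbf4 and Dtl, the subunit of a ubiquitin ligase that acts on Cdt1. Its genes were lower in NCs in 8 of 10 cases as deposited and in 3 of 10 after equal sums. As deposited, fork proteins outside the members were lower in 9 of 18 cases, nucleotide supply genes in 3 of 8 and chromatin assembly genes in 7 of 11. After equal sums these counts were 6, 1 and 3. The same 52.4% and 32.9% of all genes stand beside the counts of these small lists. The lowest ratios were those of Hells, a chromatin remodeler (123 FPKM in ESCs against 62.6 FPKM in NCs), Top2a, the topoisomerase that untangles replicated DNA (265 and 156 FPKM), and Chaf1b of the histone chaperone CAF-1 (65.8 and 42.7 FPKM). The highest were those of Asf1a, Pclaf, a PCNA-binding factor (38.5 and 62.6 FPKM), and Chtf8, a subunit of an alternative clamp loader (53.8 and 81.8 FPKM).

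Genes of the cell cycle outside replication mostly lay below the median gene. Of 24 such genes, 21 did so, where 50% of all genes lie. As deposited 21 were lower in NCs, against 52.4% of all genes, and after equal sums 14 were, against 32.9%. The median log2 ratio of the 24 was -0.37 as deposited. All 13 mitotic genes lay below the median gene, with a median log2 ratio of -0.34 that is somewhat further from 0 than the -0.28 of the replication genes. The lowest ratios of the 24 were those of Bub1, a checkpoint kinase (62.5 FPKM in ESCs against 38.1 FPKM in NCs), Aurka, a spindle kinase (97.9 and 62.1 FPKM), and Ccnb1, the mitotic cyclin B1 (220 and 140 FPKM). Among the 11 G1/S cyclin, CDK and E2F genes, 8 lay below the median gene. The highest ratios were those of Ccne2, a cyclin E gene (1.91 and 4.80 FPKM), E2f3, an activating E2F (9.05 and 17.0 FPKM), and E2f7, a repressing E2F (8.19 and 9.91 FPKM). Ccne2 was the one gene of the 24 that passed 2-fold as deposited, against 21% of all genes. Ccne1, the other cyclin E gene, had far more RNA and the opposite direction, at 91.4 and 59.5 FPKM.

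**Figure D4:**
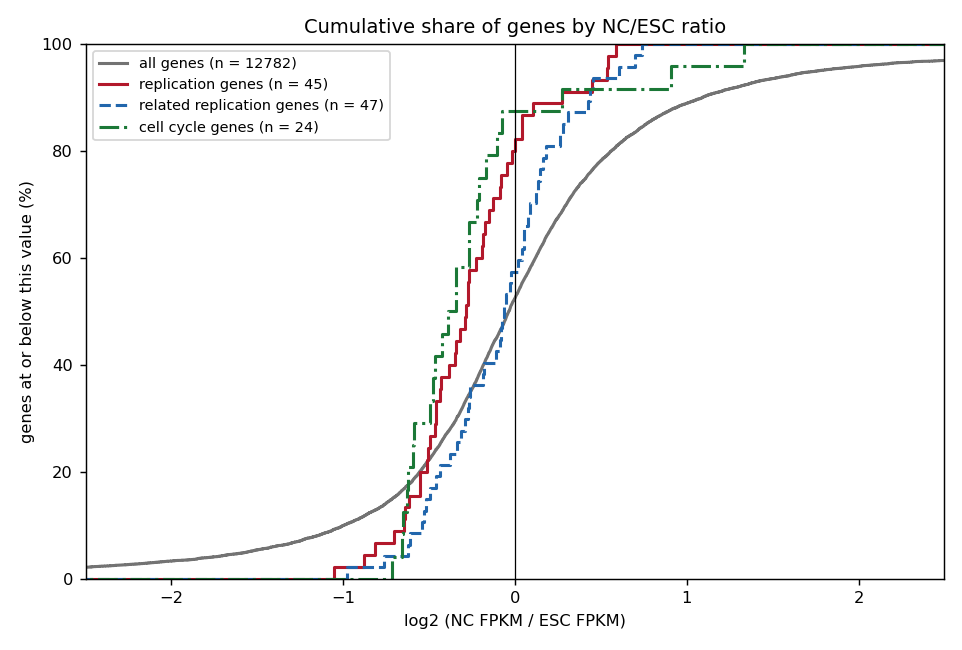
Cumulative share of genes, in percent, at or below each log2 ratio of the NC to the ESC FPKM as deposited, for all 12782 genes, the 45 replication genes, the 47 related genes and the 24 cell cycle genes. The replication and cell cycle curves climb steeply just left of 0 and stay inside the tails of all genes, with medians of -0.28 and -0.37, while the related genes have a median of -0.06.

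The labels of the conditions were checked against marker genes. All 6 pluripotency markers were lower in NCs (Pou5f1 832 and 37.1 FPKM, Nanog 225 and 13.9 FPKM), and their summed FPKM was 2078 in ESCs and 81.4 in NCs. All 5 RA-response genes were higher in NCs (sum 7.36 and 710 FPKM). Of 9 neural genes 6 were higher (Pax6 3.64 and 65.2 FPKM), while the neuronal genes Tubb3, Map2 and Rbfox3 were lower and Neurog2, Dcx and Rbfox3 were under 1 FPKM in NCs, so defining markers of neurons were low. All 6 endoderm genes were higher (sum 16.9 and 39.3 FPKM), 3 of 5 fibroblast genes were higher (sum 19.6 and 41.9 FPKM), and all 4 mesoderm genes were under 1 FPKM in both conditions. The part of other cell types in the values of the replication genes was not tested.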

How the data were processed

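RNA-seq was made from 3 ESC and 3 NC samples, grouped by their titles. The authors prepared TruSeq libraries for Illumina sequencing, aligned the reads to mm10 with TopHat2 (version 2.0.8), which ran Bowtie2 (version 2.1.0), assembled transcripts with Cufflinks 2.0.2 and Cuffmerge, and estimated FPKM with Cuffdiff, whose version and normalization are not given in the sources used here. The deposited table holds 1 FPKM per gene and condition, pooled over the replicates by the authors. The heading of the NC column reads FPK and was taken as FPKM. The table also holds the authors' log2 fold change, test statistic, p-value, q-value, significance call and test status, and none of these was used. The planned tests needed values per sample, so no test was run here.

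Log2 ratios were computed without a pseudocount from the FPKM as deposited. Genes with a mean FPKM of at least 1 entered the counts, and a name on several rows was taken at its row with the highest mean. "Past 2-fold" describes the pair of pooled values and is not a test. Every one of the 45 members is named, with the 3 highest and 3 lowest ratios of the related and cell cycle lists. Dbf4, Dtl, Ccne1, Pold3, Pold4, Pole3 and Pole4 were named after their values were seen. The members and lists were chosen with earlier results of these data known. The depth of each sample is not known. What 1 fragment is worth in FPKM was estimated from genes with the smallest values above 0, assuming fragments of 200 bases, a method chosen after the data were seen. Promoter windows came from RefSeq (GRCm38.p6) and gene positions from GENCODE M21 (GRCm38). Pseudocounts of 0.1 and 1, filters, scalings and a 1.5-fold limit were the alternatives. The computation was tested on simulated data. Python 3.11.15, numpy 2.4.6, pandas 2.3.3 and matplotlib 3.10.9 were used. The ChIP-seq and miRNA-seq measurements of the study were not analysed here.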

Additional observations from a re-analysis of the deposited data

How the results depend on the processing

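With 1 pooled FPKM per gene and condition, no spread between replicates was set against any difference. No paired analysis was possible because the deposited columns carry no values of single replicates, and for the same reason no replicate could be left out. The scale mattered most: after equal FPKM sums the members' median log2 ratio was 0.011 in place of -0.28, 21 in place of 36 members were lower in NCs, and 0 in place of 1 were at least 2-fold lower. The median was -0.23 with equal upper quartiles, -0.25 when centred on the median gene, -0.28 with a pseudocount of 0.1 and -0.27 with a pseudocount of 1. With a limit of 1.5-fold, 7 members were lower and 1 was higher. Without a filter, with a mean FPKM of at least 5 and with rows of a name summed, the members' counts and median could not change. All 45 members passed either filter, and each had a row of its own. The share of all genes lower in NCs was 49.4% without a filter and 55.7% at a mean FPKM of at least 5. By gene, 15 of the 45 members turned direction after equal sums, 2 with equal upper quartiles and 1 when centred. With either pseudocount 0 turned, which was certain, since the same amount is added to both values. Ratios between members within a condition do not depend on the scale.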

Other observations

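Of the 45 members, 8 have a protein-coding neighbour whose start lies within 1000 bases in the other direction, and 7 of these 9 neighbours had a mean FPKM of at least 1. As deposited, 4 of the 7 pairs had the same direction, where 52.4% of all genes were lower in NCs and 47.6% higher. Whether such pairs share a direction more often than other genes was not tested. Mcm4 was at 99.0 FPKM in ESCs against 72.0 FPKM in NCs, and its neighbour Prkdc, which encodes the catalytic subunit of a DNA repair kinase, was at 4.88 and 3.85 FPKM. Orc3 and its neighbour Rars2, a mitochondrial arginyl-tRNA synthetase gene that starts 13 bases away, were both lower in NCs as deposited, and Rars2 was at 20.2 and 18.5 FPKM. Pole and Pxmp2, whose starts lie 120 bases apart, differed in direction, with Pxmp2 at 13.5 FPKM in ESCs against 16.2 FPKM in NCs. Mcm8 and Trmt6, 86 bases apart, also differed as deposited, with Trmt6 at 18.5 and 19.5 FPKM. After equal sums Mcm8, Orc3 and Rars2 turned to the higher side in NCs, so that Mcm8 then shared the direction of Trmt6.

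The members are spread over 14 chromosomes, with 8 on chromosome 5 and 6 on chromosome 8. Gene bodies of 14 members overlap a protein-coding gene in the annotation. Orc2 overlaps Nif3l1 on the opposite strand over 19046 bases, the longest such overlap of a member with a protein-coding gene, and the reads of the pair were not separated here.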
